A study of Mus musculus with 6 samples.

Results

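Periostin, fibronectin, osteonectin, the thrombospondins and their companions are secreted proteins that organise or modify the extracellular matrix of the heart. The 9 genes described here are Postn, Tnc, Sparc, Thbs1, Thbs4, Cilp, Fn1, Lox and Timp1, and they were taken by symbol from a deposited expression table of 54352 gene rows. All 9 were found, and all 9 were among the 13094 genes that passed the filter on low values (a mean level of at least 5). The libraries that were high for these genes did not follow the study's groups. Library 1 of diabetic hearts given a dominant negative MCUb was the highest for 8 of 9 genes, and library 2 of diabetic hearts given an empty vector was second for 8 of 9. The other library of each diabetic group lay near or below the level of control hearts, and none of the 9 genes passed limma's test in any comparison of groups over the 6 libraries.

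The study sequenced RNA from mouse hearts in 6 libraries, in 3 groups of 2. T2D dnMCUb hearts came from C57BL/6 mice made diabetic (type 2 diabetes, T2D) at 12 weeks with a 60% fat diet (share of calories) and 1 injection of streptozotocin at 75 mg/kg, and then given an adeno-associated virus (AAV) for dnMCUb. MCUb is an inhibitory subunit of the channel that lets calcium into mitochondria, and dnMCUb is its murine form with the changes W246R and V251E and a FLAG tag, described as dominant negative. The codon changes that the labels list beside these protein changes do not encode them as written, and the text on the whole study mentions MCUb rather than dnMCUb, so the exact allele is uncertain and is given as labelled. T2D empty vector hearts came from mice with the same diet and streptozotocin that received an empty AAV. Control mice ate regular chow, and their labels list no vector, so they differ from both diabetic groups in diet, streptozotocin and virus at once. Diabetes was defined 20 weeks after the diet began. AAV was injected by way of the jugular vein 16 to 18 weeks past streptozotocin, and hearts were studied 4 weeks later, at 5 to 6 months from induction. The labels do not name a promoter for the vector, give no account of the heart cells it reached, and do not state whether 2 libraries of a group are 2 animals. The p-values below therefore measure the spread between these libraries, which may be technical.

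Matricellular proteins such as periostin, tenascin C, osteonectin and the thrombospondins sit in the matrix without being its main scaffold, and they tune how cells attach to it and respond to growth factors. In the adult heart fibroblasts make most of the matrix, and several of these genes are known to be raised in fibroblasts that become active after injury. Fibronectin forms fibrils that bind integrins, lysyl oxidase crosslinks collagen and elastin, and Timp1 inhibits the metalloproteinases that cut matrix. In bulk heart RNA fewer cells of a type and less RNA per cell cannot be told apart.

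Values are regularized log (rlog) values, a log2 scale on which genes with few reads are pulled strongly towards their own mean. Depth is unknown for all libraries because no counts were at hand. A first principal component carried 46.69% of the variance, with T2D dnMCUb library 1 at 10.82 and the other libraries between -4.423 and 2.693. Mcub, whose mutated form the vector carries, had an rlog of 5.62 and 5.47 in T2D dnMCUb, 5.48 and 5.46 in T2D empty vector, against 5.42 and 5.47 in control. Library 2 of T2D dnMCUb was thus no higher for Mcub than T2D empty vector library 1. The sources do not say whether vector reads were counted under this gene, so the groups are called by their labels. The cardiomyocyte gene Myh6 lay between 18.68 and 19.12 in all 6 libraries.

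All coordinates are on GRCm38. Postn (ENSMUSG00000027750.16) lies on the plus strand of chromosome 3 from 54361125 to 54391034, Thbs1 (ENSMUSG00000040152.8) on the plus strand of chromosome 2 from 118111876 to 118127133, and Cilp (ENSMUSG00000042254.14) on the plus strand of chromosome 9 from 65265180 to 65280605. Timp1 (ENSMUSG00000001131.11) lies on the plus strand of chromosome X from 20870221 to 20874735. On the minus strand are Fn1 (ENSMUSG00000026193.15, chromosome 1, 71585524 to 71653175), Sparc (ENSMUSG00000018593.13, chromosome 11, 55394500 to 55420080) and Thbs4 (ENSMUSG00000021702.7, chromosome 13, 92751590 to 92794818). Tnc (ENSMUSG00000028364.15, chromosome 4, 63959785 to 64020725) is also on that strand. All 9 are protein coding, and the transcripts listed for 8 of them, all but Lox, have the same coordinates in GENCODE release M21. These transcripts run from 6 exons in Timp1 to 46 in Fn1. For 5 genes the annotation holds a gene on the opposite strand that overlaps them. Of these partners, 4 have a mean rlog in the table, and it was 0.19 or lower for each (Apol7d with Fn1, Gm29233 with Thbs1, Syn1 with Timp1 and 8030451A03Rik with Tnc). The partner of Lox, AC161119.1, was not analysed here. The library kit is stranded, but the strand setting of the counting is not given in the sources used here.

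Promoter windows are shown because the 9 genes moved together across libraries. RefSeq windows on GRCm38.p6, running from 250 bases before to 50 bases after the start of transcription, were at hand for 6 of the 9 genes (Postn, Sparc, Thbs4, Timp1, Tnc and Cilp). Each was searched on both strands for 4 motifs. These were the core promoter letters TATAAA and the letters TGANTCA, which AP-1 factors bind. The others were GGAATG, bound by TEAD factors, and the SMAD-binding letters CAGACA. Matches are in capitals in the windows of 4 genes below, whose RefSeq start lies within 18 bases of the start of the table's transcript. The Postn window is chr3:54360857-54361156 on the plus strand, that of Sparc chr11:55420031-55420330 on the minus strand, that of Thbs4 chr13:92794769-92795068 on the minus strand, and that of Cilp chr9:65264930-65265229 on the plus strand.
Postn: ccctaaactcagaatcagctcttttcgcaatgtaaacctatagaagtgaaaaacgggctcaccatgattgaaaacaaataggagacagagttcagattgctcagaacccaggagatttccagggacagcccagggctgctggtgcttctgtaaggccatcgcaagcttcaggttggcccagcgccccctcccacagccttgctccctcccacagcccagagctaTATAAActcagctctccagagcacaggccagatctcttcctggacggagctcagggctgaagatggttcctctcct
Sparc: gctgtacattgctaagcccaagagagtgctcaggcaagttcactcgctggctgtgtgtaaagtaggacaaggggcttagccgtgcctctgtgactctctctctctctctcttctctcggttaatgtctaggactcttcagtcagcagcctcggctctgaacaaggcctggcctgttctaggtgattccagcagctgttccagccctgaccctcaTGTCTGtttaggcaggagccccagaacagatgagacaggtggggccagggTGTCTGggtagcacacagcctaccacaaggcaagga
Thbs4: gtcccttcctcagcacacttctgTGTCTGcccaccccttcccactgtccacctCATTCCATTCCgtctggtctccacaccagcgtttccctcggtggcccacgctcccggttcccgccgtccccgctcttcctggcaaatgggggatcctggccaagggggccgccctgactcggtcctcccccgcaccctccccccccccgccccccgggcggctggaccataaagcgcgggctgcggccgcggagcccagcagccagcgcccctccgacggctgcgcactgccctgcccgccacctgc
Cilp: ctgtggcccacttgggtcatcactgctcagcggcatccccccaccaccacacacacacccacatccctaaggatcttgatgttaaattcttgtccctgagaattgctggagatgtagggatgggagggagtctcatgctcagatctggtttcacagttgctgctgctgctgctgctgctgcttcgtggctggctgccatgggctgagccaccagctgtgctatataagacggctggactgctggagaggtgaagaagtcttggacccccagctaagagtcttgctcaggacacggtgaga
Postn carries TATAAA 26 bases before its start, and Sparc carries TGTCTG, the SMAD letters read on the other strand, at 36 bases before and 14 bases after its start. Thbs4 has 1 such SMAD match and 2 matches of the TEAD letters (CATTCC on this strand) that overlap each other, and the Cilp window has none of the 4 motifs. TATAAA was found in 2 of the 6 windows (Postn and Tnc), the TEAD letters in 2 (Thbs4 and Timp1), the SMAD letters in 3 (Sparc, Thbs4 and Tnc) and the AP-1 letters in 0. Among all 32851 windows of this length, 13.6% hold TATAAA, 14.7% the TEAD letters, 21.0% the SMAD letters and 7.81% the AP-1 letters. No motif was found in all 6 windows. The Tnc window surrounds a start that lies 26290 bases from the start of the table's Tnc transcript.

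Postn encodes periostin, a matricellular protein of activated fibroblasts that binds collagen and integrins. Its rlog was 11.42 and 10.19 in T2D dnMCUb libraries 1 and 2, 10.19 and 10.81 in T2D empty vector libraries 1 and 2, against 10.34 and 10.17 in control libraries 1 and 2. One library of each diabetic group stood above both control libraries, and the other was at the control level. Between the libraries of a group Postn differed 2.34-fold in T2D dnMCUb (library 1 over library 2) and 1.53-fold in T2D empty vector (library 2 over library 1). Folds between libraries, here and below, are 2 raised to an rlog difference and so are compressed.

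Thbs1 encodes thrombospondin 1, which can activate latent TGF beta and binds CD36 and CD47. It showed the widest range of the 9 genes, with an rlog of 10.84 and 9.13 in T2D dnMCUb, 9.15 and 10.41 in T2D empty vector, against 9.62 and 9.39 in control. The high libraries were again T2D dnMCUb 1 and T2D empty vector 2, and here the other 2 diabetic libraries lay below both control libraries. The gap within T2D dnMCUb was 3.28-fold and that within T2D empty vector 2.38-fold. Among the 13094 genes, only 4 had a gap in this direction as large as that of Thbs1 in T2D dnMCUb, Thbs1 included, and 3 in T2D empty vector.

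Thbs4 encodes thrombospondin 4, which in mouse heart is known to bind and activate the endoplasmic reticulum (ER) stress factor Atf6 in addition to acting in the matrix. Its rlog was 7.41 and 6.79 in T2D dnMCUb, 6.80 and 7.34 in T2D empty vector, against 6.93 and 6.98 in control. The lower diabetic library of each group was below both control libraries and the higher one above both. The gap was 1.54-fold in T2D dnMCUb and 1.45-fold in T2D empty vector.

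Tnc encodes tenascin C, a matricellular protein that is scarce in healthy adult heart and appears at sites of remodelling. Its rlog was 6.02 and 5.77 in T2D dnMCUb, 5.78 and 6.06 in T2D empty vector, against 5.82 and 5.78 in control. It is the 1 gene of the 9 whose highest value lay in T2D empty vector library 2, with T2D dnMCUb library 1 second. Sparc, which encodes osteonectin, a collagen-binding glycoprotein needed for collagen processing in the heart, had an rlog of 12.45 and 12.13 in T2D dnMCUb, 12.14 and 12.32 in T2D empty vector, against 12.05 and 12.22 in control. Control library 1 minus library 2 was -0.17, close in size to the 0.18 between the T2D empty vector libraries, so Sparc separated the libraries less clearly than Postn or Thbs1.

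Cilp encodes cartilage intermediate layer protein, a matrix protein known in the heart as a fibroblast product that can dampen TGF beta signalling. Its rlog was 9.34 and 8.11 in T2D dnMCUb, 8.20 and 9.19 in T2D empty vector, against 8.31 and 8.25 in control. The high diabetic libraries were apart from the other 4, which lay between 8.11 and 8.31. Cilp differed 2.35-fold within T2D dnMCUb and 1.98-fold within T2D empty vector, against a control gap of 0.063 on the log2 scale.

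Fn1 encodes fibronectin, the fibril-forming ligand of several integrins. Its rlog was 10.67 and 9.84 in T2D dnMCUb, 9.94 and 10.46 in T2D empty vector, against 10.01 and 9.79 in control. The same pair of libraries was high, with gaps of 1.77-fold in T2D dnMCUb and 1.43-fold in T2D empty vector. Lox (ENSMUSG00000024529.13, minus strand of chromosome 18, 52517238 to 52529708 as the table gives it) encodes lysyl oxidase, the enzyme that starts the crosslinking of collagen and elastin, and had an rlog of 6.98 and 6.71 in T2D dnMCUb, 6.73 and 6.86 in T2D empty vector, against 6.77 and 6.75 in control. Timp1, which encodes a secreted inhibitor of matrix metalloproteinases, had an rlog of 5.51 and 5.27 in T2D dnMCUb, 5.35 and 5.43 in T2D empty vector, against 5.33 and 5.29 in control. Gaps within the diabetic groups were small for Lox (1.20-fold in T2D dnMCUb and 1.10-fold in T2D empty vector) and Timp1 (1.18-fold and 1.06-fold in that order), and rlog values of genes at such low levels are the most compressed.

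**Figure D1:**
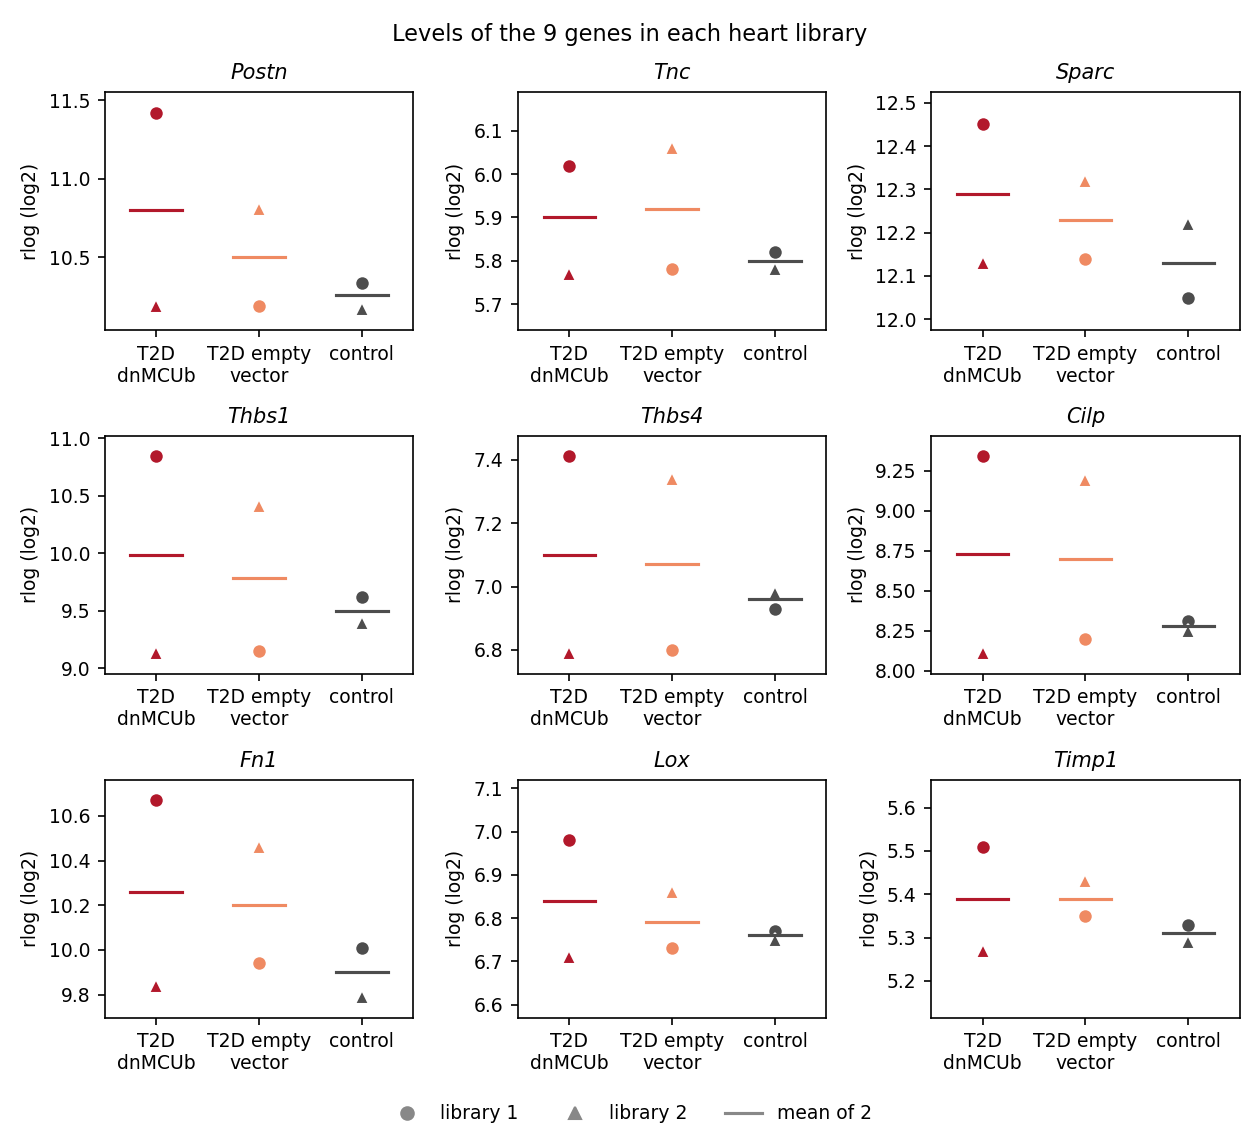
Level of each of the 9 genes in each library (rlog, log2 scale; each panel has its own axis, which does not start at 0), by group from left to right T2D dnMCUb, T2D empty vector and control. Circles are library 1, triangles library 2 and lines the mean of 2 libraries. T2D dnMCUb library 1 and T2D empty vector library 2 stand above both control libraries in every panel, and the other library of each diabetic group lies close to control or below it.

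To compare levels between genes, the log2 of the transcript length in kilobases was subtracted from the mean rlog over the 6 libraries. On this length-adjusted log2 scale Sparc was the highest at 11.03, followed by Postn at 8.87, Thbs1 at 7.22, Fn1 at 7.08, Cilp at 6.52, Timp1 at 5.65, Thbs4 at 5.38, Lox at 4.96 and Tnc at 3.11. The ranges over the 6 libraries did not overlap between Sparc and Postn, Postn and Thbs1, Cilp and Timp1, or Lox and Tnc. They overlapped for the neighbours Thbs1 and Fn1, Fn1 and Cilp, Timp1 and Thbs4, and Thbs4 and Lox, so these ranges alone do not settle their order. Both genes of a pair were measured in the same libraries, and these ranges do not compare them library by library. On the rlog scale variation did not follow the level. The SD over the 6 libraries was 0.709 for Thbs1, which 7 of the 13094 genes reached (Thbs1 included). It was 0.548 for Cilp and 0.501 for Postn, but 0.146 for Sparc and 0.0905 for Timp1. Rlog compresses genes at low levels most, so these SDs are not comparable between genes. Between T2D empty vector and control, Timp1 had an rlog difference of 0.082 and an authors' log2 fold of 0.83. Sparc had 0.098 and 0.14.

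The order of libraries was nearly the same for all 9 genes. T2D dnMCUb library 1 exceeded the higher control library in 9 of 9, by a median of 0.43 (0.18 to 1.22) on the log2 scale. T2D empty vector library 2 did so in 9 of 9, by a median of 0.35 (0.095 to 0.88). T2D dnMCUb library 2 was the lowest of all 6 libraries for 6 genes and lay below T2D empty vector library 1 in 9 of 9, by a median of only 0.018. As a median over the 9 genes, relative to the control mean, T2D dnMCUb libraries 1 and 2 stood at 0.46 and -0.058, and T2D empty vector libraries 1 and 2 at -0.035 and 0.38. The control libraries stood at 0.023 and -0.023.

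Both within-group gaps, T2D dnMCUb library 1 minus 2 and T2D empty vector library 2 minus 1, were positive for 9 of 9 genes, against 27.0% of all genes tested. Both of these libraries lay above the other 4 for 9 of 9 genes, against 11.9% of all genes. These measures were chosen after the values were seen, so they describe the libraries and carry no test. The median gap was 0.63 in T2D dnMCUb and 0.52 in T2D empty vector, against 0.046 between control library 1 and library 2. Over all genes the medians were -0.0094, -0.0025 and 0.0017 in that order. Cilp ranked close to Thbs1 among all genes, with 9 genes as large in T2D dnMCUb and 4 in T2D empty vector (Cilp included), and Postn followed with 10 and 15. At the other end were Timp1, whose gaps 403 and 1326 genes reached, and Lox with 335 and 487. Rlog compresses genes at low levels most, so such ranks do not compare true gaps between genes.

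**Figure D2:**
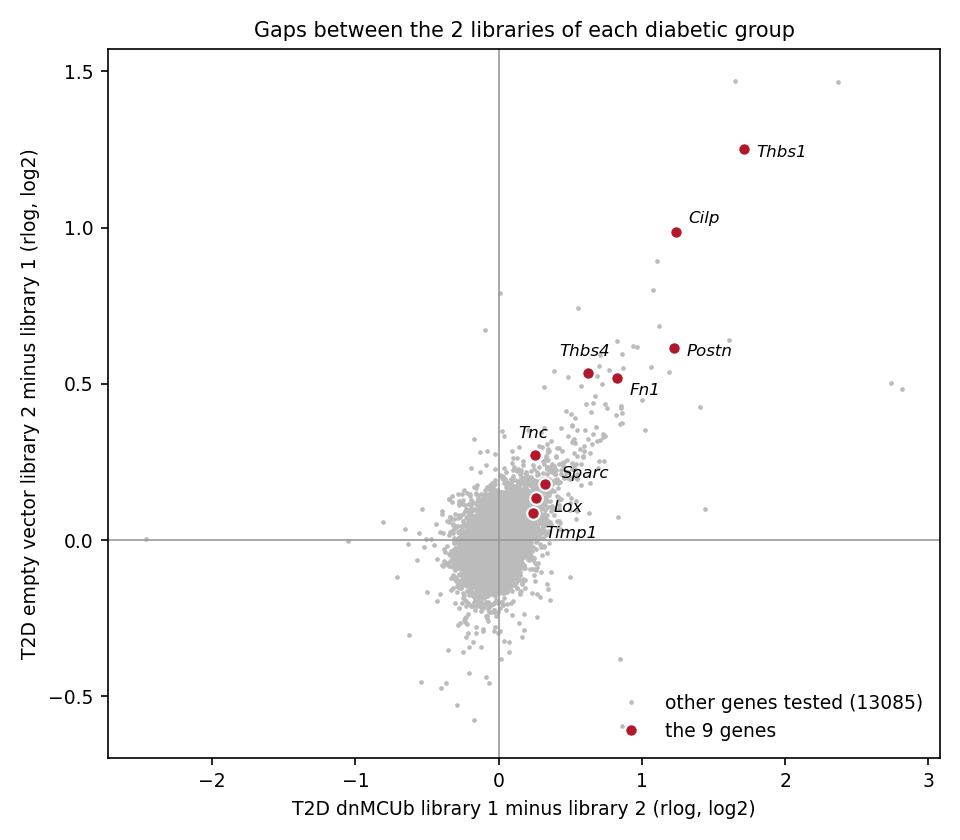
Gap between the libraries of each diabetic group for every gene tested, with T2D dnMCUb library 1 minus library 2 on the horizontal axis and T2D empty vector library 2 minus library 1 on the vertical axis (both rlog, log2 scale). Grey points are the other genes tested and red points the 9 genes, which all lie above 0 on both axes, with Thbs1 (1.71 and 1.25), Cilp (1.23 and 0.99) and Postn (1.23 and 0.62) farthest out.

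Diabetic hearts given the empty vector were compared with control hearts to ask what diabetes, together with the virus, did to these genes. By the means of 2 libraries all 9 genes were higher in T2D empty vector than in control, with a median difference of 0.12 on the log2 scale (all genes tested, -0.0025), where 48.2% of all genes were higher. Cilp had the largest mean difference, with 8.70 ± 0.70 in T2D empty vector and 8.28 ± 0.044 in control (SD, n = 2 each), or 0.42 (SE 0.41; limma, adjusted p = 0.884). Fn1 differed by 0.30 (SE 0.26; limma, adjusted p = 0.878), Thbs1 by 0.28 (SE 0.55; adjusted p = 0.941) and Postn by 0.24 (SE 0.36; adjusted p = 0.918). The spread between the T2D empty vector libraries was larger than the difference for each of these. Timp1 was the only gene of the 9 whose groups did not overlap, at 5.39 ± 0.061 in T2D empty vector and 5.31 ± 0.022 in control, where 19.9% of all genes were apart in this direction.

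In limma 0 of the 9 genes passed, where 0.0% of all genes did, and 0 of 9 reached an unadjusted p of 0.05, where 6.13% did. By the authors' own deposited test 0 of 9 had an adjusted p under 0.05, where 0.542% of the genes tested did. The authors' table gave a log2 fold of 1.17 for Cilp, 0.93 for Tnc and 0.83 for Timp1, each with an adjusted p of 0.9997. Its folds are not compressed as rlog differences are: over the 9 genes the rlog difference was a median 0.355 of the authors' log2 fold in this comparison. Without T2D empty vector library 2 the median difference of the 9 genes was -0.035, and without library 1 it was 0.38.

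Hearts given dnMCUb were compared with those given the empty vector to ask what the dominant negative subunit changed within diabetes. The 9 genes had nearly equal means: 7 were higher in T2D dnMCUb, with a median difference of 0.051 (all genes tested, -0.00051), where 49.5% of all genes were higher. Postn differed most, with 10.80 ± 0.87 in T2D dnMCUb and 10.50 ± 0.43 in T2D empty vector (SD, n = 2 each), or 0.30 (SE 0.36; limma, adjusted p = 0.927). Thbs1 differed by 0.20 (SE 0.55; adjusted p = 0.97), Cilp by 0.028 (SE 0.41; adjusted p = 0.997) and Fn1 by 0.056 (SE 0.26; adjusted p = 0.983). By rlog means Tnc and Timp1 were lower in T2D dnMCUb, by -0.023 (SE 0.10) and -0.0019 (SE 0.069), which is far less than either SE. The authors' deposited table gave log2 folds of -0.15 for Tnc and 0.031 for Timp1, so the direction for Timp1 is not settled.

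In this comparison 0 of 9 genes passed in limma (0.0% of all genes), 0 of 9 had an unadjusted p under 0.05 (5.64% of all genes) and 0 of 9 had a call from the authors (their deposited table; 0.0611% of the genes tested). For 0 of 9 genes were the groups apart with T2D dnMCUb higher, where 15.6% of all genes were. The direction rested on single libraries. Without T2D dnMCUb library 1 the median of the 9 differences was -0.28, and without T2D dnMCUb library 2 it was 0.35. Without T2D empty vector library 1 it was -0.16, and without T2D empty vector library 2 it was 0.30. The libraries left unpaired in such fits are assumed to vary as the other groups do.

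Hearts given dnMCUb were also set against control hearts, which differ in diet, streptozotocin and virus. All 9 genes had a higher mean in T2D dnMCUb, with a median difference of 0.15 (all genes tested, -0.0023), where 48.5% of all genes were higher. Postn had 10.80 ± 0.87 in T2D dnMCUb and 10.26 ± 0.12 in control (SD, n = 2 each), a difference of 0.55 (SE 0.36; limma, adjusted p = 0.572). Thbs1 differed by 0.48 (SE 0.55; adjusted p = 0.741), Cilp by 0.44 (SE 0.41; adjusted p = 0.679) and Fn1 by 0.35 (SE 0.26; adjusted p = 0.609). The other 5 genes differed by 0.15 or less. The groups overlapped for every gene, so 0 of 9 were apart with T2D dnMCUb higher, where 20.2% of all genes were.

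In limma 0 of 9 genes passed (0.0687% of all genes), 0 of 9 had an unadjusted p under 0.05 (11.4% of all genes) and 0 of 9 had a call in the authors' deposited table (0.794% of the genes tested), where the log2 folds were 1.33 for Cilp, 1.31 for Thbs1 and 1.12 for Postn. This comparison shares its control libraries with the first one and its dnMCUb libraries with the second. The result turned on the library of T2D dnMCUb that was used. Without library 2, Postn (1.16, SE 0.20; limma, adjusted p = 0.0217), Fn1 (0.77, SE 0.17; adjusted p = 0.0432) and Timp1 (0.20, SE 0.04; adjusted p = 0.0325) passed, 3 of 9 genes where 5.67% of all genes passed. Without library 1 all 9 differences were below 0, from -0.38 for Thbs1 to -0.0092 for Sparc, and none passed in limma.

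**Figure D3:**
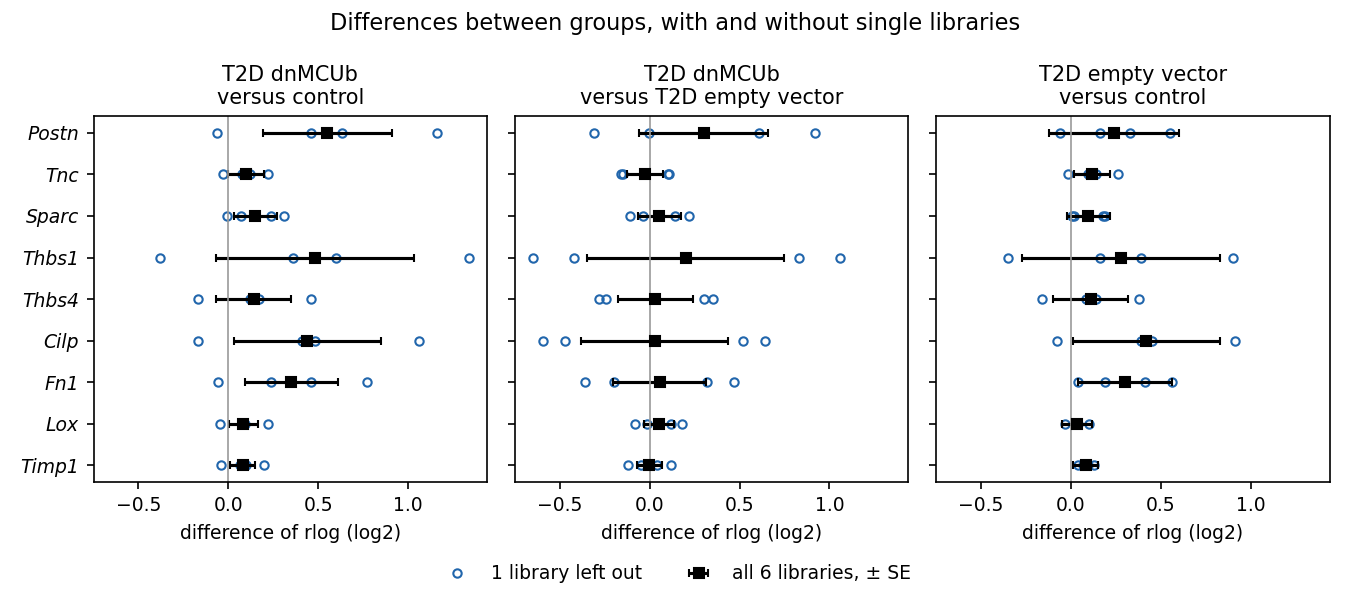
Difference of rlog (log2 scale) between groups for each of the 9 genes, in the order T2D dnMCUb versus control, T2D dnMCUb versus T2D empty vector and T2D empty vector versus control. Black squares with bars are limma differences from 6 libraries with their SE, and blue circles are differences with 1 library left out. For most genes the circles lie on both sides of 0, as for Thbs1, which ran from -0.38 to 1.34 in the comparison of T2D dnMCUb with control.

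Most structural matrix genes were high in the same pair of libraries. Of 24 collagens and small proteoglycans, all 24 had both gaps positive, with medians of 0.52 in T2D dnMCUb and 0.35 in T2D empty vector, and in 21 of 24 both libraries lay above the other 4. Exceptions, named after their values were seen, include the basement membrane collagen Col4a1, which was highest in control library 2 (13.41 and 13.22 in T2D dnMCUb, 13.33 and 13.49 in T2D empty vector, against 13.32 and 13.54 in control), and the small proteoglycan Ogn, which was higher in T2D dnMCUb library 2 (12.39) than in T2D empty vector library 2 (12.28). The 2 with the smallest p between T2D empty vector and control were Bgn, a small proteoglycan that binds collagen (11.44 and 10.67 in T2D dnMCUb, 10.69 and 11.23 in T2D empty vector, against 10.66 and 10.61 in control), and Fmod, its tendon-rich relative (8.44 and 7.36, 7.35 and 8.15, and 7.52 and 7.23 in the same order). In limma 0 of the 24 passed in any comparison. By their means 22 of 24 were higher in T2D dnMCUb than in control, with a median of 0.18, and 19 of 24 were higher in T2D empty vector than in control, with a median of 0.09.

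Among 25 tested relatives of the matricellular genes, 22 had both gaps positive, and 0 passed in limma in any comparison. Mgp, a calcification inhibitor named here after its values were seen, had an rlog of 12.04 and 10.92 in T2D dnMCUb, 10.91 and 11.60 in T2D empty vector, against 11.08 and 10.98 in control. Thbs2, the closest relative of Thbs1, had another order of libraries. Its rlog was 10.74 and 10.64 in T2D dnMCUb, 10.47 and 10.54 in T2D empty vector, against 10.41 and 10.40 in control, so that its 3 groups did not overlap. Thbs2 was higher in T2D dnMCUb than in control by 0.29 (SE 0.052; limma, adjusted p = 0.111), with a log2 fold of 0.47 and an adjusted p of 0.0624 in the authors' deposited table. Its difference from control was 0.34 without T2D dnMCUb library 2 and 0.24 without T2D dnMCUb library 1. Each of these fits leaves 1 library in that group.

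Spp1, which encodes osteopontin, is the 1 relative that the authors' deposited table called, with a log2 fold of 3.83 and an adjusted p of 4.89e-05 for T2D dnMCUb against control. Its rlog was 5.37 and 5.17 in T2D dnMCUb, 5.08 and 5.43 in T2D empty vector, against 5.02 and 5.01 in control. Both diabetic groups thus stood above control, and T2D empty vector library 2 and T2D dnMCUb library 1 were again the highest. Efemp1, a fibulin of elastic fibres, was lower in T2D empty vector (8.96 and 8.95) than in control (9.20 and 9.02), by -0.15 (SE 0.066; limma, adjusted p = 0.805), with values of -0.065 without control library 1 and -0.24 without control library 2.

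Among 24 tested metalloproteinases and protease inhibitors, the list to which Timp1 belongs by function, both gaps were positive in 14, and 0 passed in limma. Timp3, the matrix-bound relative of Timp1, had an rlog of 12.99 and 12.60 in T2D dnMCUb, 12.34 and 12.57 in T2D empty vector, against 12.23 and 12.24 in control. Both diabetic groups lay above control. It was higher in T2D dnMCUb than in control by 0.56 (SE 0.13; limma, adjusted p = 0.184), and the authors' deposited table called it with a log2 fold of 0.84 (adjusted p = 0.0001194). Without T2D dnMCUb library 2 the difference was 0.76, and without T2D dnMCUb library 1 it was 0.37. Each of these fits leaves 1 library in that group. Mmp9 was close to the filter, at 5.44 and 5.42 in T2D dnMCUb, 5.41 and 5.41 in T2D empty vector, against 5.47 and 5.48 in control.

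Genes that work with Lox gave a mixed picture. Of 20 tested lysyl oxidases and genes of collagen or elastin fibre assembly, 13 had both gaps positive and 0 passed in limma. The relatives Loxl1 (9.54 and 9.21 in T2D dnMCUb, 9.19 and 9.50 in T2D empty vector, against 9.25 and 9.20 in control) and Loxl2 (8.60 and 8.26, 8.33 and 8.54, and 8.22 and 8.32 in the same order) had the same 2 highest libraries as Lox, but not the same order below them. They were chosen as its family members, after the values were seen. Plod2, a lysyl hydroxylase of collagen, instead had an rlog of 9.70 and 9.77 in T2D dnMCUb, 9.73 and 9.70 in T2D empty vector, against 9.59 and 9.57 in control. Plod2 was higher than control by 0.16 in T2D dnMCUb (SE 0.045; limma, adjusted p = 0.271) and by 0.14 in T2D empty vector (adjusted p = 0.759).

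A list of integrins, syndecans and other matrix receptors, not all of them receptors of the 9 proteins, varied less than the 9 genes. Of 25 tested, 21 had both gaps positive, but the medians were 0.15 in T2D dnMCUb and 0.064 in T2D empty vector, and 0 passed in limma in any comparison. Itga8, an integrin subunit that pairs with Itgb1 and binds fibronectin and tenascin C, was named after its values were seen, at 9.99 and 8.38 in T2D dnMCUb, 8.34 and 8.98 in T2D empty vector, against 8.52 and 8.44 in control. Itgb1 itself lay between 13.35 and 13.50 in all libraries. Itgb6, whose protein pairs with Itgav to bind fibronectin and latent TGF beta, was lower in T2D dnMCUb (9.23 and 9.20) than in control (9.50 and 9.51), by -0.29 (SE 0.052; limma, adjusted p = 0.111). The difference was -0.27 without T2D dnMCUb library 2 and -0.30 without T2D dnMCUb library 1, so it was similar with either library. The syndecan Sdc4, a fibronectin co-receptor, was lower in T2D empty vector (9.28 and 9.19) than in control (9.38 and 9.50), by -0.21 (SE 0.059; adjusted p = 0.691), and higher in T2D dnMCUb (9.49 and 9.39) than with the empty vector by 0.21 (adjusted p = 0.784).

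Of 28 tested genes of the TGF beta pathway, which drives many matrix genes in fibroblasts, 17 had both gaps positive and 0 passed in limma. By means 25 of 28 were higher in T2D dnMCUb than in control, with a median of 0.11, and 22 of 28 were higher in T2D empty vector than in control, with a median of 0.029. Acvrl1, a type I receptor of the family, was even within groups, at 9.54 and 9.56 in T2D dnMCUb, 9.38 and 9.37 in T2D empty vector, against 9.36 and 9.40 in control. Its mean in T2D dnMCUb was above that in T2D empty vector, with a difference of 0.17 (SE 0.041; limma, adjusted p = 0.78). The ligand Tgfb3 was highest in the same 2 libraries as the 9 genes (9.28 and 8.93 in T2D dnMCUb, 8.90 and 9.05 in T2D empty vector, against 8.97 and 8.93 in control), while Tgfb1 varied little (7.07 and 7.0, 7.0 and 7.11, and 6.93 and 7.07 in the same order). Both ligands were named after their values were seen.

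Genes of ER folding and Atf6, the factor that Thbs4 is known to act on, did not share the order of libraries: 3 of 15 had both gaps positive. In T2D empty vector 12 of 15 had a lower mean than in control (median -0.083, 4 lower and 0 higher at an unadjusted p under 0.05, which 6.13% of all genes reached in either direction), and 13 of 15 had a higher mean with dnMCUb than with the empty vector (median 0.13, 9 higher and 0 lower at an unadjusted p under 0.05, which 5.64% of all genes reached in either direction). In limma 0 of 15 passed over all genes in either comparison. Since both comparisons use the T2D empty vector libraries, opposite directions in them are not independent. Between T2D dnMCUb and control 12 of 15 had a higher mean in T2D dnMCUb, with a median of 0.031.

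Manf, a secreted ER stress protein, had an rlog of 8.96 and 9.10 in T2D dnMCUb, 8.71 and 8.80 in T2D empty vector, against 9.01 and 9.10 in control. It was lower in T2D empty vector than in control by -0.30 (SE 0.061; limma, adjusted p = 0.491) and 0.28 higher in T2D dnMCUb than with the empty vector (SE 0.061; adjusted p = 0.78). Hspa5, the main ER chaperone, had an rlog of 13.48 and 13.63 in T2D dnMCUb, 13.40 and 13.46 in T2D empty vector, against 13.66 and 13.65 in control. The authors' deposited table called both lower in T2D empty vector than in control, with log2 folds of -0.64 for Manf (adjusted p = 0.01715) and -0.32 for Hspa5 (adjusted p = 0.007006). Thbs4 itself was 0.11 higher in T2D empty vector than in control (SE 0.21; limma, adjusted p = 0.935). Serpinh1, the collagen chaperone of the ER, had an rlog of 12.29 and 12.36 in T2D dnMCUb, 12.02 and 12.13 in T2D empty vector, against 12.11 and 12.25 in control.

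Markers of fibroblasts, and the tested markers of valve, cartilage and tendon, were highest in the same libraries as the 9 genes. Which cells the RNA of the 9 genes came from was not tested. The lists share genes, so their counts are not independent. Col1a1, Col1a2, Col3a1, Dcn and Lum are fibroblast markers and also in the collagen list. Comp is an activated fibroblast marker, a valve, cartilage and tendon marker and a matricellular relative. Ltbp2, Col8a1, Fmod, Acta2 and Tagln are also shared between lists. The summed level of 10 fibroblast markers, scaled to the control mean, was 1.47 and 1.07 in T2D dnMCUb, 0.982 and 1.20 in T2D empty vector, against 1.04 and 0.964 in control, and 10 of 10 had both gaps positive. Activated fibroblast markers gave 1.58 and 0.891 in T2D dnMCUb, 0.874 and 1.19 in T2D empty vector, against 1.02 and 0.98 in control. Both gaps were positive in 9 of the 9 tested, and in 7 of 9 both libraries lay above the other 4. Acta2 and Tagln, also smooth muscle markers, had the highest levels in this sum and so weigh most in it. Ddah1 was highest in control library 2 (6.98 and 6.89 in T2D dnMCUb, 6.96 and 6.97 in T2D empty vector, against 6.99 and 7.05 in control). Markers of valve, cartilage and tendon gave 2.03 and 0.938 in T2D dnMCUb, 0.93 and 1.59 in T2D empty vector, against 1.06 and 0.942 in control, and the 6 of 10 that were tested all had both gaps positive. Among them Comp, a thrombospondin family member of cartilage and tendon that was named after its values were seen, had an rlog of 9.01 and 7.36 in T2D dnMCUb, 7.27 and 8.74 in T2D empty vector, against 7.65 and 7.40 in control. Of that list Tnmd, Acan, Col2a1 and Hapln1 fell below the filter on low values.

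Smooth muscle and pericyte markers had both gaps positive in 8 of 9, with medians of 0.47 in T2D dnMCUb and 0.22 in T2D empty vector, although their summed level was 1.03 and 0.929 in T2D dnMCUb, 0.934 and 0.977 in T2D empty vector, against 0.973 and 1.03 in control. Endothelial markers had both gaps positive in 5 of 9, with medians of 0.089 and 0.066 in the same order. Ventricular cardiomyocyte markers summed to 0.746 and 0.942 in T2D dnMCUb, 0.911 and 0.927 in T2D empty vector, against 1.03 and 0.97 in control, and 0 of 9 had both gaps positive. Atrial markers summed to 1.52 and 0.735 in T2D dnMCUb, 0.707 and 0.742 in T2D empty vector, against 1.07 and 0.928 in control. The atrial light chain gene Myl7 was at 10.22 in T2D dnMCUb library 1 and 9.45 in control library 1 and between 7.32 and 7.94 in the other 4 libraries, so it did not follow the 9 genes, although 4 of 6 atrial markers tested had both gaps positive. Macrophage markers had both gaps positive in 1 of 10 and epicardial and mesothelial markers in 0 of 7. The part of these cell types in the results on the 9 genes was not tested.

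**Figure D4:**
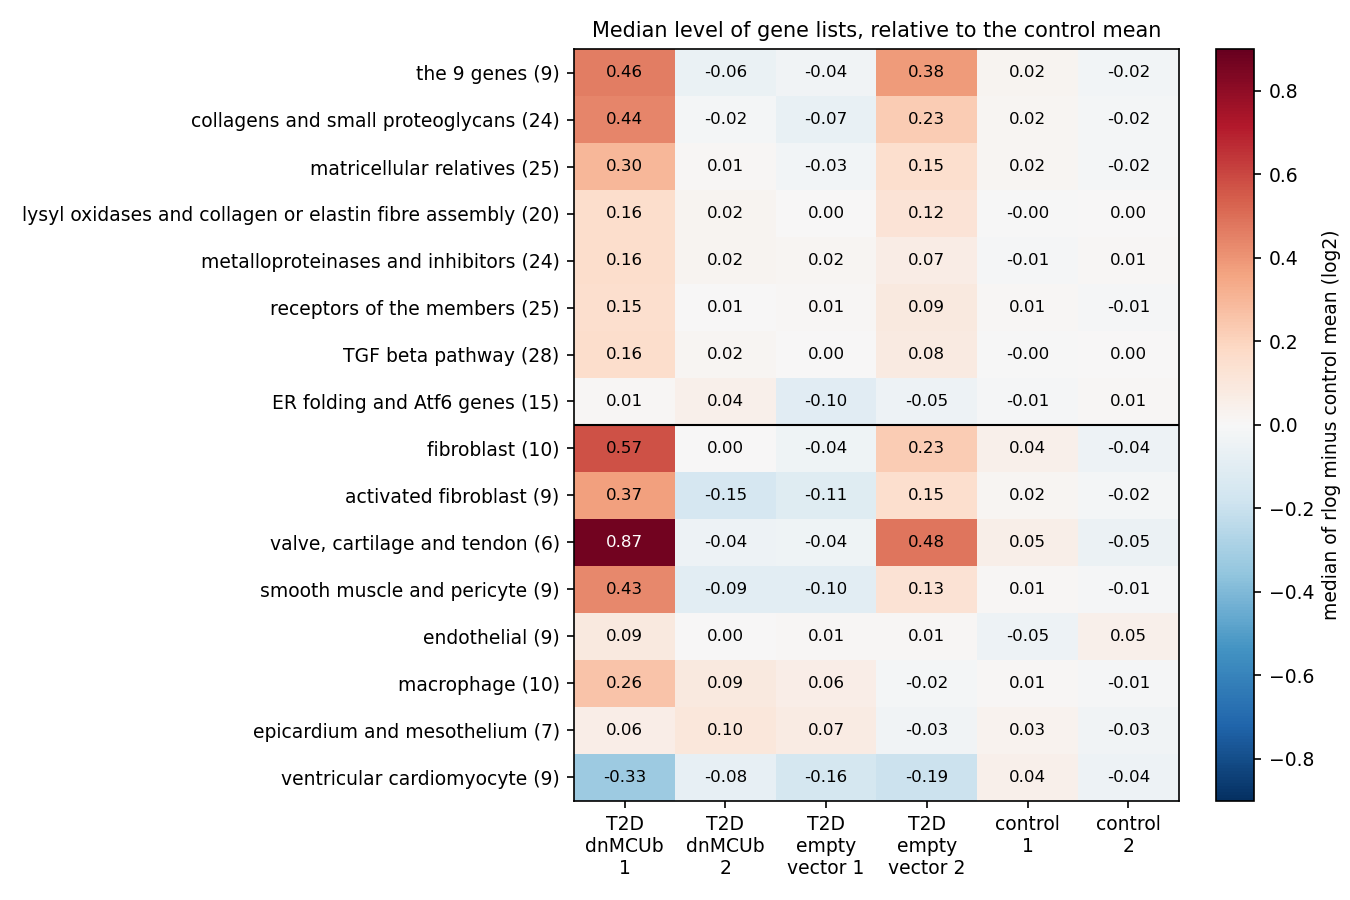
Median over the genes of each list of the rlog in a library minus the mean of the control libraries (log2 scale), with the number of genes tested in parentheses, for the 9 genes and wider gene lists (above the line) and cell type markers (below it). Red is above and blue below control. The 9 genes stand at 0.46 in T2D dnMCUb library 1 and 0.38 in T2D empty vector library 2. Markers of valve, cartilage and tendon, of fibroblasts, and the collagens are high in the same 2 libraries, but these lists share genes.

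The genes most like the mean profile of the 9 were sought among 6538 other genes that varied at least as much as the median gene (an SD of at least 0.0471). The 5 with the highest Pearson r over the 6 libraries were Pcdhga10 (0.998), Mxra8 (0.997), Pcdhga1 (0.995), Ltbp2 (0.995) and Pcdhgb1 (0.994). All these values come from the same 6 libraries, and no p is given. Mxra8, a matrix remodelling associated membrane protein, had an rlog of 9.89 and 9.36 in T2D dnMCUb, 9.39 and 9.71 in T2D empty vector, against 9.47 and 9.43 in control. Ltbp2, a microfibril protein of the latent TGF beta binding family, had an rlog of 7.79 and 6.69 in T2D dnMCUb, 6.72 and 7.62 in T2D empty vector, against 6.86 and 6.82 in control. The 3 gamma protocadherin genes share their last exons with each other, so reads may have been assigned to any of them and their values are uncertain.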

How the data were processed

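RNA was measured in 6 mouse heart libraries prepared with a stranded kit after ribosomal RNA removal, per the labels' protocols. Tools listed in the submitters' processing notes, with no roles, are STAR 2.5.2a, bcl2fastq 2.20.0.422 and DESeq2, and the builds are GRCm38, mm10 and hg38. How reads were counted is not given in the sources used here. The authors deposited 1 table of 54352 rows, with rlog values on the log2 scale for 6 libraries and, per comparison, a log2 fold with raw and adjusted p-values, beside each transcript's length. The table lists 22778 rows at 0 in all libraries. It holds no counts, so depth is unknown and no counting interval is given. For 24 genes, symbols that had been turned into dates were restored by identifier.

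From the deposited rlog values, groups were compared with limma 3.58.1 in R 4.3.3 in 1 fit of 6 libraries with a term per group, a mean-variance trend and Benjamini-Hochberg adjustment at 0.05 over 13094 genes whose mean rlog was 5 or more. Residual degrees of freedom were 3, and prior ones 4.6. The fit was tested on simulated data. With 2 libraries a group the smallest exact permutation p (two-sided) is 0.333, so no such test was used. A difference is the group named first minus the other, and its error is limma's standard error. Genes called in the authors' table all had the sign of the rlog difference (71 for T2D empty vector versus control, 8 for T2D dnMCUb versus T2D empty vector and 104 for T2D dnMCUb versus control).

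The 9 genes, the wider lists and the marker lists were chosen with earlier results of these data known. Of each wider list the text names, per comparison, genes that passed or else the 2 with the smallest p, and says where a gene was added after its values were seen. A gene named under this rule is not reported here. Marker levels are sums of linear values (2 raised to the rlog) over a list, divided by the mean sum of the control libraries. Promoter windows are from RefSeq (GRCm38.p6), and gene models from GENCODE M21. Alternatives were no filter, no trend, only the 2 groups compared, quantile normalization, median centring, a replicate block and leaving out each library.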

Additional observations from a re-analysis of the deposited data

How the results depend on the processing

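For the 9 genes, all 162 differences kept their direction and stayed unpassed under 6 other settings (no filter, no trend, only the 2 groups compared, quantile normalization, median centring and a replicate block; lowest adjusted p 0.443 in limma). Over all genes, the number called between T2D empty vector and control was 0 and became 30 with only the 2 groups compared, and between T2D dnMCUb and control it was 9 and became 0 under each of the 6 settings, the replicate block included; the cause was not tested. Same-numbered libraries did not deviate together. Their deviations gave r = -0.511 between T2D dnMCUb and T2D empty vector. The value was -0.0133 between T2D dnMCUb and control, and -0.0876 between T2D empty vector and control. These values rest on a single contrast per group, so they cannot decide whether same-numbered libraries shared a batch. The labels do not state it.

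Leaving out 1 library moved the genes called from 0 to 30 for T2D empty vector against control, from 0 to 14 for T2D dnMCUb against T2D empty vector and from 0 to 743 for T2D dnMCUb against control, the members called in the last from 0 to 3, and the members' median between T2D dnMCUb and T2D empty vector from -0.28 to 0.35. Single differences then ranged, between T2D empty vector and control, from -0.063 to 0.55 for Postn, -0.35 to 0.90 for Thbs1, -0.16 to 0.38 for Thbs4, -0.035 to 0.10 for Lox, -0.016 to 0.26 for Tnc, -0.077 to 0.91 for Cilp, 0.038 to 0.56 for Fn1, 0.0083 to 0.19 for Sparc and 0.039 to 0.13 for Timp1. Between T2D dnMCUb and T2D empty vector they ranged from -0.31 to 0.92 for Postn, -0.36 to 0.47 for Fn1, -0.11 to 0.22 for Sparc, -0.65 to 1.06 for Thbs1, -0.28 to 0.35 for Thbs4, -0.12 to 0.12 for Timp1, -0.081 to 0.18 for Lox, -0.16 to 0.11 for Tnc and -0.59 to 0.64 for Cilp. Between T2D dnMCUb and control they ranged from -0.065 to 1.16 for Postn, -0.058 to 0.77 for Fn1, -0.0092 to 0.31 for Sparc, -0.38 to 1.34 for Thbs1, -0.17 to 0.46 for Thbs4, -0.038 to 0.20 for Timp1, -0.048 to 0.22 for Lox, -0.031 to 0.22 for Tnc and -0.17 to 1.06 for Cilp. With 1 library left in a group, that library is assumed to vary as the other groups do. With 2 libraries a group and unknown depth, differences of the size seen within groups could not be resolved.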
